A study of Mus musculus with 2 samples.

Results

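The 10 genes described here mark the mesothelium, the flat epithelium that lines the body cavities and covers the mesentery. Of the 27998 genes in the count matrix, 6 are surface genes (Msln, Upk3b, Upk1b, Lrrn4, Muc16 and Gpm6a) and 4 are simple-epithelium keratins (Krt7, Krt8, Krt18 and Krt19). They were chosen by name as mesothelial genes, so their excess in mesothelial-like cells is a description and was not tested. All 10 were found in the matrix, and all 10 passed the filter on low counts.

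The study profiled cells of the whole mesentery, the sheet that suspends the gut, from 2 untreated male wild-type C57BL/6N mice. Its purpose was to examine mesenchymal cells and group 2 innate lymphoid cells (ILC2) of the tissue. Each mouse gave 1 library of single cells on the 10x Chromium 3′ platform (version 2), after digestion of the tissue with Liberase DH, a collagenase blend. The labels give a birth date and no age at harvest, and both mice form 1 group, so the comparisons below are between cell classes within the animals.

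The deposited matrix held 3204 barcodes, with 5137671 UMIs in library 1 and 5563521 UMIs in library 2 and median depths of 3065 and 2663 UMIs per barcode. A UMI (unique molecular identifier) marks 1 captured RNA molecule. Filtering kept 3100 cells (1445 and 1655), and no barcode was shared between the libraries. Unsupervised clustering that did not use the 10 genes gave 11 cell classes and 2 small unnamed clusters of 48 cells in all. Levels are CPM, the UMIs of a gene after the summed cells of a class are scaled to 1000000 UMIs. A mean ± SD covers the 2 libraries (n = 2), and intervals are exact at 95% and cover counting error only.

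Mesothelial cells are epithelial in shape and contacts, yet they arise from mesoderm and also make vimentin and collagens. Their free surface carries microvilli and a glycoprotein coat that keeps the serous membranes gliding. Keratin filaments form only when a type I keratin (Krt18, Krt19) assembles with a type II keratin (Krt7, Krt8), and they anchor to desmosomes. Mesothelin, encoded by Msln, is a lipid-anchored glycoprotein that binds the large tethered mucin encoded by Muc16. Upk3b and Upk1b encode uroplakins, membrane proteins best known from the urothelial plaque, and Upk1b belongs to the tetraspanins. Lrrn4 encodes a membrane protein with leucine-rich repeats. Gpm6a encodes a proteolipid-family glycoprotein known from the outgrowth of neurites.

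On the mouse build GRCm38 (GENCODE M21 annotation) the genes lie on 8 chromosomes, and all are protein-coding. Msln (ENSMUSG00000063011) lies at chr17:25748613-25754378 on the minus strand and Upk3b (ENSMUSG00000042985) at chr5:136038496-136046487 on the plus strand. Upk1b (ENSMUSG00000049436) lies at chr16:38773184-38800328, minus strand, Lrrn4 (ENSMUSG00000043110) at chr2:132868305-132880891, minus strand, and Muc16 (ENSMUSG00000109564) at chr9:18495455-18674530, minus strand. Gpm6a (ENSMUSG00000031517) lies at chr8:54954843-55060871 on the plus strand. Among the keratins, Krt19 (ENSMUSG00000020911) lies at chr11:100140810-100148665, minus strand. The other 3 keratins share chromosome 15: Krt7 (ENSMUSG00000023039) at chr15:101411043-101430313, plus strand, Krt8 (ENSMUSG00000049382) at chr15:101996698-102004482, minus strand, and Krt18 (ENSMUSG00000023043) at chr15:102028180-102032027, plus strand. Krt8 and Krt18 are transcribed away from each other, with 23697 bases between the gene bounds.

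The promoters of the 3 keratins of chromosome 15 are printed because these genes sit in 1 stretch of the genome and were all higher in the same mesothelial-like sub-cluster (below). Each sequence covers 250 bases before to 50 bases after the transcript start (RefSeq, GRCm38.p6), 5′ to 3′ on the gene's strand, and some RefSeq starts differ from the gene bounds above. Capitals mark a TATA box (TATAAA) or a GC box (GGGCGG) on either strand. The regions are chr15:101412153-101412452 (plus strand) for Krt7, chr15:102004293-102004592 (minus strand) for Krt8 and chr15:102027966-102028265 (plus strand) for Krt18.
Krt7: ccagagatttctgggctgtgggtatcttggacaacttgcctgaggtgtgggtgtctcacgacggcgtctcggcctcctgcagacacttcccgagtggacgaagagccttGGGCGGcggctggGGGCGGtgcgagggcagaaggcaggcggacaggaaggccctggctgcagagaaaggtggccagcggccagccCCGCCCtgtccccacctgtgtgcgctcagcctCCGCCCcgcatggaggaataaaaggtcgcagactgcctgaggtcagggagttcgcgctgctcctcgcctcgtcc
Krt8: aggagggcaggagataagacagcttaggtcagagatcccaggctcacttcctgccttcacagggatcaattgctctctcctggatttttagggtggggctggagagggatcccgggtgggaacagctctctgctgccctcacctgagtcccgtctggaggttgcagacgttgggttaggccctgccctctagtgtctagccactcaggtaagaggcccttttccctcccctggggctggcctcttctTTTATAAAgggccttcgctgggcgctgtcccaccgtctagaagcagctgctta
Krt18: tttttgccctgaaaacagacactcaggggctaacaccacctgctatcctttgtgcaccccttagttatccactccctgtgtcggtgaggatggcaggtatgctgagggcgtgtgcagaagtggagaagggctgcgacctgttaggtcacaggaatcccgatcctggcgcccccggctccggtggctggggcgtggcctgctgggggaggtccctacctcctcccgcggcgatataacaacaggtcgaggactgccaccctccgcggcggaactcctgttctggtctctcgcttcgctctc
Krt7 held 4 GC boxes and no TATA box: those on the plus strand began at -141 and -128 and those on the minus strand at -56 and -24, counted from the start. Krt8 held TATAAA on both strands, in overlapping copies at -1 and -3, and no GC box, and Krt18 held neither. Across 32851 promoters of this length, 13.6% held TATAAA and 35.7% held GGGCGG. A sequence was matched for 7 of the 10 genes, the exceptions being Msln, Upk1b and Krt19. Gpm6a had 2 promoters, of which 1 held a GC box and no TATA box and the other a TATA box and no GC box. The AP-1 site TGANTCA was in no promoter of the 7 genes and in 7.81% of all promoters. The TEAD site GGAATG was in Upk3b, Lrrn4 and the Gpm6a promoter with the GC box, and in 14.7% of all promoters. A match is a string of letters and not a shown binding site.

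A single cluster of 244 cells (67 in library 1 and 177 in library 2) was mesothelial-like by 9 markers outside the 10 genes. Of these, 8 were more than 2-fold above the other cells, among them Wt1, a transcription factor of mesothelium, at 452 and 470 CPM against 68.3 and 73.3 CPM in other cells. Bnc1, a zinc-finger gene, had 64.9 and 67.4 CPM in the cluster and no UMI elsewhere. Calb2, the calretinin gene used in human pathology, had no UMI in the cluster. The mesothelial-like cells made up 4.64% and 10.7% of the cells in libraries 1 and 2, and 9.21% and 18.4% of the UMIs. They were deeper than the rest, with a median of 6116.5 UMIs per cell against 2691.5 UMIs in all other cells.

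The 10 genes together had 5811 CPM in library 1 and 5495 CPM in library 2 in mesothelial-like cells, versus 8.85 and 13.6 CPM in all other cells. Mesothelial-like cells gave 8139 UMIs, which is 98.5% of all UMIs of the 10 genes in library 1 and 98.9% in library 2. The remaining 100 UMIs (39 and 61) lay in 85 of 2856 cells. Every one of the 244 mesothelial-like cells held a UMI of at least 1 of the genes, and 50 held all 10. The number of genes seen in a cell followed its depth: cells with all 10 had a median of 8069.5 UMIs and cells with 2 had 1770.5 UMIs.

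**Figure D1:**
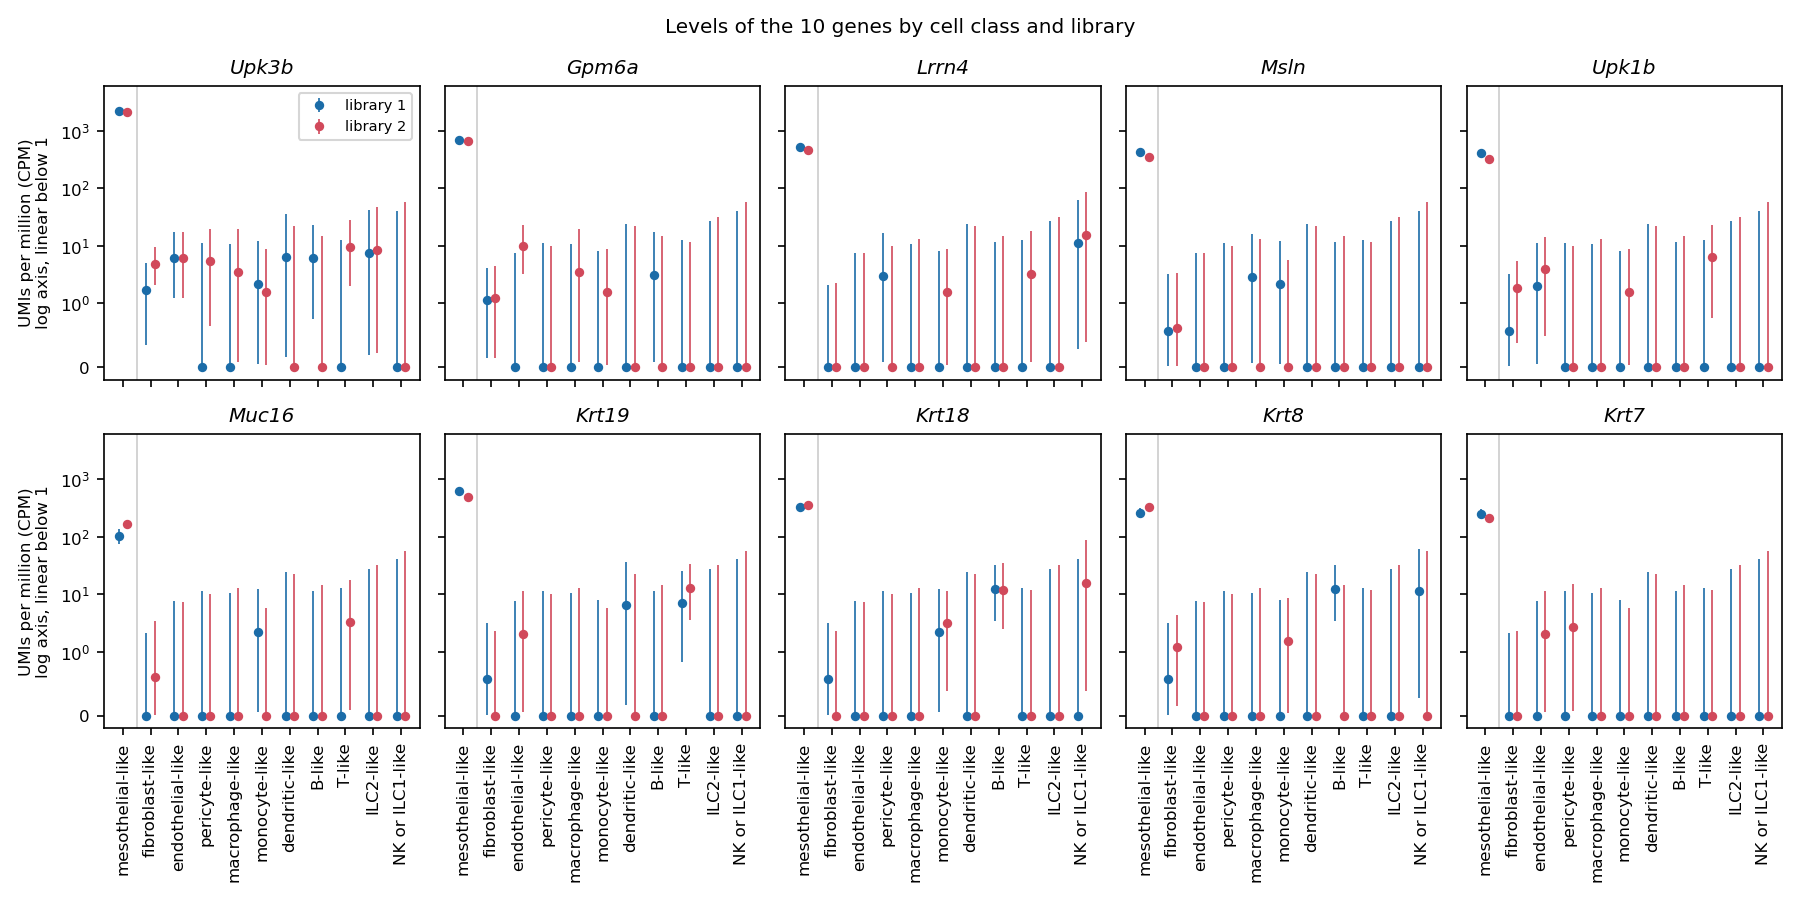
Level of each of the 10 genes (CPM, log axis that is linear below 1) in mesothelial-like cells, left of the grey line, and in the 10 other named classes, with 1 point per library and exact 95% Poisson bars. In mesothelial-like cells the genes sit between 103 and 2227 CPM, and in no other class does any gene pass 15.4 CPM.

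Among the surface genes Upk3b was the most abundant, with 2227 CPM in library 1 and 2121 CPM in library 2. Gpm6a followed at 687 and 674 CPM, and Lrrn4 at 528 and 472 CPM. The libraries lay close for these genes, and Upk3b alone supplied 38.5% of all UMIs of the 10 genes in mesothelial-like cells. Msln had 421 and 345 CPM, its binding partner Muc16 had 103 and 166 CPM, and Upk1b had 403 and 327 CPM. Muc16 was the lowest of the 10 in both libraries, and its libraries differed most in proportion, by 1.61-fold.

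The type I keratin Krt19 had 616 and 496 CPM, and the type I keratin Krt18 had 322 and 358 CPM. Of the type II keratins, Krt8 had 257 and 323 CPM and Krt7 had 246 and 213 CPM. Type I keratins were therefore more abundant than type II: type II UMIs were 34.9% (31.3 to 38.8%) of the keratin UMIs in library 1 and 38.6% (36.0 to 41.2%) in library 2. Within the pair Krt8 and Krt18, Krt8 took 44.4% (38.3 to 50.7%) and 47.5% (43.7 to 51.3%) of the UMIs, so most of the excess of type I came from Krt19.

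Ordered by mean level the genes ran Upk3b (2174 ± 74.8 CPM), Gpm6a (681 ± 9.27), Krt19 (556 ± 84.8), Lrrn4 (500.05 ± 39.9), Msln (383 ± 53.6), Upk1b (365 ± 53.6), Krt18 (340.1 ± 25.1), Krt8 (290.3 ± 46.5), Krt7 (230 ± 23.4) and Muc16 (134 ± 44.3). The 3′ chemistry counts each molecule once, so these levels are not scaled to gene length. Of the 9 pairs of neighbours in this order, 4 had overlapping library values: Krt19 with Lrrn4, Msln with Upk1b, Upk1b with Krt18, and Krt18 with Krt8. The order within those pairs is not resolved by 2 libraries.

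Outside mesothelial-like cells each of the 10 genes was near the limit of detection. The highest class value of a gene ran from 2.68 CPM (Krt7, pericyte-like) to 15.4 CPM (Lrrn4 and Krt18, each 1 UMI in NK or ILC1-like cells of library 2). Upk3b was the most widespread, with a UMI in 9 of the 10 other named classes. The keratin Krt7 had no UMI in 8 of the 10, and Msln and Muc16 had none in 7. Gpm6a had none in 5, and the other 5 genes (Upk1b, Lrrn4, Krt8, Krt18 and Krt19) had none in 6.

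Summed over the 10 genes, the named classes other than mesothelial-like ranged from 4.94 ± 2.92 CPM in macrophage-like cells (3 UMIs) to 26.5 ± 6.10 CPM in NK or ILC1-like cells (4 UMIs). The unnamed clusters had 25.4 ± 1.53 CPM (4 UMIs). B-like cells had 23.1 ± 15.9 CPM (14 UMIs), T-like cells 21.1 ± 20.1 CPM (13 UMIs) and endothelial-like cells 16.1 ± 11.3 CPM (16 UMIs). The lower values were 9.82 ± 1.55 CPM in monocyte-like cells (11 UMIs), 8.04 ± 3.28 CPM in fibroblast-like cells (27 UMIs) and 7.96 ± 0.792 CPM in ILC2-like cells (2 UMIs). Dendritic-like cells had 6.48 ± 9.16 CPM (2 UMIs) and pericyte-like cells 5.54 ± 3.55 CPM (4 UMIs). With so few UMIs the intervals of neighbouring classes overlapped, and no order among them can be read.

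Differences of the 10 genes between the other classes could not be assessed. Each gene passed the low-count filter through its level in mesothelial-like cells, while all 10 together had 27 UMIs in fibroblast-like cells, 16 in endothelial-like cells, 4 in pericyte-like cells and 3 in macrophage-like cells. No call between these classes is read at such counts.

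The make-up of the 10 genes' UMIs was compared between mesothelial-like and other cells. Upk3b took 38.5% of the UMIs in mesothelial-like cells and 32.0% (23.0 to 42.1%) of the 100 UMIs elsewhere. The 4 keratins took 25.1% in mesothelial-like cells and 33.0% (23.9 to 43.1%) elsewhere. With the libraries pooled, both shares in mesothelial-like cells therefore fall inside the wide interval of the other cells. Krt18 took 6.2% in mesothelial-like cells and 13.0% (7.11 to 21.2%) elsewhere. With B-like cells left out it took 6.98% (2.60 to 14.6%) of the 86 UMIs elsewhere, an interval that holds the mesothelial-like share. By library, the interval of the other cells lay above the mesothelial-like share in library 1 only. There Krt18 took 5.55% in mesothelial-like cells and 17.9% (7.54 to 33.5%) of the 39 UMIs elsewhere, and Krt8 took 4.43% and 15.4% (5.86 to 30.5%). The 4 keratins together took 24.8% in mesothelial-like cells of library 1 and 43.6% (27.8 to 60.4%) elsewhere. In library 2 they took 25.3% in mesothelial-like cells and 26.2% (15.8 to 39.1%) elsewhere. In library 2 Krt18 took 6.51% in mesothelial-like cells, inside the interval of the other cells (9.84%, 3.70 to 20.2%).

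**Figure D2:**
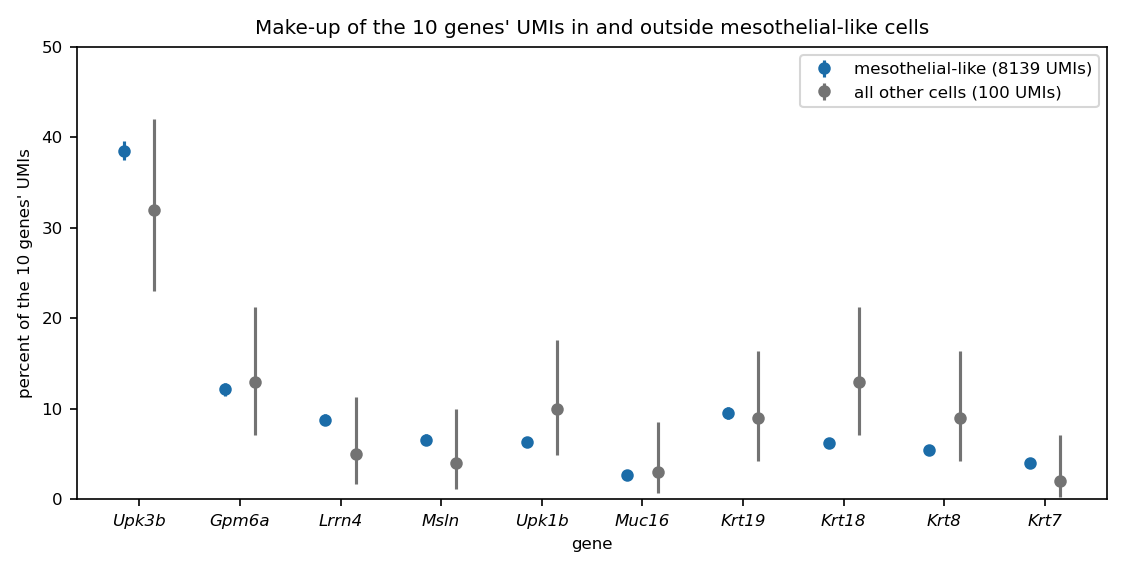
Percent of the 10 genes' UMIs taken by each gene in mesothelial-like cells (blue, 8139 UMIs) and in all other cells (grey, 100 UMIs), with exact 95% binomial bars. Both libraries are pooled. The grey bars span the blue point for 9 of the 10 genes, and the Krt18 bar lies above it.

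The Krt18 UMIs outside mesothelial-like cells were most frequent in B-like cells. Krt18 was seen in 7 of 236 B-like cells (2.97%, 1.20 to 6.02%), 4 in library 1 and 3 in library 2. In the other 2620 non-mesothelial cells it was seen in 6 (0.229%, 0.0841 to 0.498%), although their median depth was higher, at 2809.5 UMIs against 1830 UMIs in B-like cells. T-like cells, which should lack keratins, had Krt18 in 0 of 315 cells at a median of 1619 UMIs, which by 3 counts of the total allows up to 0.952% of cells with a UMI. Its filament partner Krt8 was in 2 B-like cells (0.847%, 0.103 to 3.03%), both in library 1, and in 5 of the 2620 others (0.191%). The B-like counts of Krt18 and of Krt8 each include a barcode whose markers go against its class name (below).

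The 14 UMIs of the 10 genes in B-like cells were 7 of Krt18, 4 of Krt8, 2 of Upk3b and 1 of Gpm6a, so keratins made up 78.6% (49.2 to 95.3%). That interval treats the UMIs as independent, although several came from the same barcode. Each of 2 B-like barcodes held 2 UMIs of Krt8 and 1 of Krt18. The first had 5878 UMIs in all and 22 UMIs of B-cell markers. The second had 1346 UMIs, none of a B-cell marker and 23 of gut epithelial markers, so its class name goes against its markers. It is counted in the B-like values, as 1 of the 7 cells with Krt18 and 1 of the 2 with Krt8. The B-like values were not computed again without it, so they overstate keratin in B-like cells. A T-like barcode of library 2 with 3517 UMIs held 4 of the 10 genes, as 3 UMIs of Upk3b, 4 of Krt19, 1 of Lrrn4 and 1 of Muc16, beside 2 UMIs of mesothelial markers, 13 of fibroblast markers and none of a T-cell marker, so its class name also goes against its markers. This barcode gave 9 of the 13 UMIs in T-like cells. Without it, a check chosen after the data were seen, the 10 genes summed to 10.2 ± 1.96 CPM in all non-mesothelial cells.

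Within mesothelial-like cells the genes differed in the share of cells in which they were seen. This share follows the level of a gene and is not by itself a measure of how evenly it is spread. Each cell was thinned to 1000 UMIs, which left out 2 of the 244. Upk3b was then seen in 88.0% of cells (83.2 to 91.8%), Gpm6a in 45.5% (39.1 to 52.0%) and Muc16 in 10.7% (7.14 to 15.3%). The others lay between 18.2% for Krt7 and 38.4% for Lrrn4. Without thinning the shares ran from 51.6% for Muc16 to 99.6% for Upk3b. In T-like cells thinned the same way, each gene was in 0 or 1 of 296 cells (at most 0.338%), with 19 shallower cells left out.

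The variance-to-mean ratio of thinned counts, which is near 1 where cells differ only by sampling, was highest for Msln (1.43), Krt18 (1.41), Krt19 (1.33) and Krt8 (1.28). It was 1.12 for Upk1b, 1.11 for Krt7, 1.05 for Gpm6a, 1.03 for Lrrn4, 0.966 for Muc16 and 0.871 for Upk3b. The median of the 1454 genes with a thinned mean of at least 0.1 UMI per cell was 1.04, with quartiles of 0.966 and 1.14. Msln and Krt19 were above the upper quartile at each thinning depth, with 1.23 and 1.35 at 500 UMIs and 2.05 and 1.63 at 2000 UMIs. The place of the other genes differed between the thinning depths. Each depth was 1 random draw with no interval on the ratio, and the cells kept also differed (242 at 1000 UMIs and 226 at 2000). An effect of depth therefore cannot be told from noise of the draw. Krt8 had 0.901 at 500 UMIs, below the lower quartile there, and 1.68 at 2000 UMIs, and Krt18 had 1.05 at 500 UMIs, between the quartiles, and 1.21 at 2000 UMIs. Upk3b had 0.907 at 500 UMIs and 1.35 at 2000 UMIs, above the upper quartile. At 1000 UMIs the ratio of Krt18 was 0.960 in library 1 and 1.64 in library 2, and that of Msln was 1.28 and 1.51.

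How many keratins were seen in a cell depended on depth. In unthinned data 85 of 244 mesothelial-like cells (34.8%) held all 4 keratins and 10 held none. Thinned to 2000 UMIs, 14 of 226 cells held all 4 and 31 held none. At 1000 UMIs, 3 of 242 held all 4 and 91 held none. Spearman correlations between keratins at 2000 UMIs were weak, from 0.046 (Krt7 with Krt18) to 0.161 (Krt7 with Krt8), with both libraries pooled. The largest single count was 42 UMIs for Upk3b and 39 UMIs for Krt8.

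Mesothelial-like cells were divided into 3 sub-clusters without using the 10 genes or the companion lists below, and the 10 genes were compared between them. Sub-cluster 2 held 17 and 18 cells, sub-cluster 1 held 24 and 60, and sub-cluster 0, the largest, held 26 and 99 in libraries 1 and 2. Their median depths were 6087 and 5752 UMIs in sub-cluster 2, 7330 and 6660.5 in sub-cluster 1, and 6156.5 and 5656 in sub-cluster 0. The 10 genes summed to 7925 and 9093 CPM in sub-cluster 2, 5688 and 6196 CPM in sub-cluster 1, and 4783 and 4249 CPM in sub-cluster 0, so the 3 did not overlap. The sub-clusters come from other genes of the same cells, so the p-values are not independent of the grouping.

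In sub-cluster 2, 7 of the 10 genes were higher than in sub-cluster 0 (edgeR, adjusted p under 0.05), against a background of 5.46% of 3258 genes called higher and 7.83% called lower, and none was lower. Msln changed most: it had 919 and 1176 CPM in sub-cluster 2, 360 and 382 CPM in sub-cluster 1, and 214 and 150 CPM in sub-cluster 0. Its log2 fold change between sub-clusters 2 and 0 was 2.55 (SE 0.21, adjusted p 3.67e-07). The libraries of the 3 sub-clusters formed 3 separate levels. Krt19 had 1157 and 1080 CPM in sub-cluster 2 against 452 and 366 CPM in sub-cluster 0, a log2 fold change of 1.39 (SE 0.17, adjusted p 2.96e-05). Krt7 had 357 and 469 CPM in sub-cluster 2 against 173 and 148 CPM in sub-cluster 0 (1.33, SE 0.24, adjusted p 0.00096). Both type I and type II keratins were higher, and the groups did not overlap for any of the 4.

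Krt8 had 292 and 478 CPM in sub-cluster 2 against 149 and 154 CPM in sub-cluster 0 (1.34, SE 0.24, adjusted p 0.0011). Krt18 had 346 and 535 CPM in sub-cluster 2 against 220 and 214 CPM in sub-cluster 0 (0.99, SE 0.23, adjusted p 0.0067). The surface genes Upk1b (551 and 669 CPM against 315 and 308 CPM in sub-cluster 0) and Gpm6a (822 and 1052 CPM against 547 and 493 CPM in sub-cluster 0) were also higher, with adjusted p of 0.0145 and 0.0059. Upk3b (2779 and 2955 CPM against 2219 and 1865 CPM in sub-cluster 0) had an adjusted p of 0.0572. Muc16 (130 and 210 CPM against 77.3 and 127 CPM in sub-cluster 0) had an adjusted p of 0.163 and Lrrn4 (573 and 469 CPM against 416 and 422 CPM in sub-cluster 0) one of 0.530. The median log2 fold change of the 10 genes was 0.93, beside -0.03 over all genes.

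In sub-cluster 1, 3 of the 10 genes were higher than in sub-cluster 0, against a background of 1.35% of genes called higher and 0.798% called lower. Krt8 had 338 and 509 CPM in sub-cluster 1 against 149 and 154 CPM in sub-cluster 0 (log2 fold change 1.51, SE 0.20, adjusted p 0.00018). Its partner Krt18 had 403 and 504 CPM in sub-cluster 1 against 220 and 214 CPM in sub-cluster 0 (1.06, SE 0.19, adjusted p 0.0035). Msln, with the values above, was higher by 1.08 on the log2 scale (SE 0.21, adjusted p 0.0083). Krt19 did not pass the test in sub-cluster 1 (494 and 511 CPM, log2 fold change 0.29, adjusted p 0.527), and Upk3b had 1961 and 2240 CPM (0.01, adjusted p 0.998). The median log2 fold change of the 10 genes was 0.57, beside -0.00 over all genes.

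With DESeq2, Krt8 alone of the 3 remained called in sub-cluster 1, and Msln, Krt7, Krt8 and Krt19 of the 7 in sub-cluster 2, with directions unchanged. Without barcodes that held 2 or more endothelial markers, a check chosen after the data were seen, the same 3 genes were called in sub-cluster 1. In sub-cluster 2 that check left 6 of the 7, with Krt18 at an adjusted p of 0.068, and added Upk3b.

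**Figure D3:**
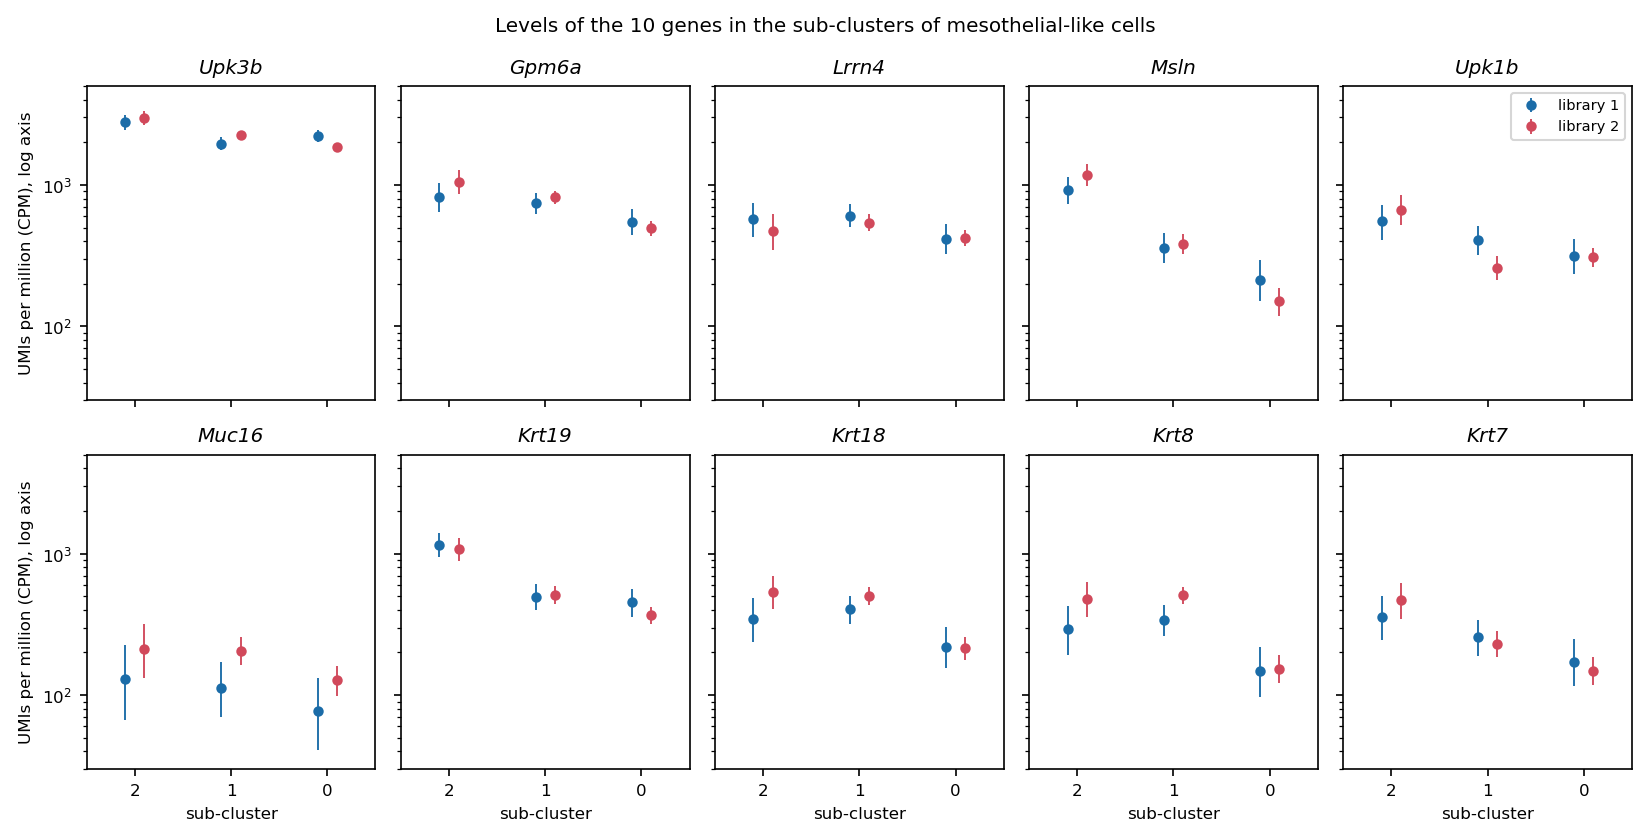
Level of each of the 10 genes (CPM, log axis) in mesothelial-like sub-clusters 2, 1 and 0, with 1 point per library and exact 95% Poisson bars. Msln falls into 3 levels, with sub-cluster 2 at 919 and 1176 CPM, and Krt8 and Krt18 are lowest in sub-cluster 0.

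The sub-clusters also differed in other genes. Those higher in sub-cluster 2 were led by Fxyd3, an ion-pump regulator (151 and 249 CPM against 5.95 and 9.63 CPM in sub-cluster 0), and Slpi, a protease inhibitor (3027 and 9189 CPM against 702 and 509 CPM in sub-cluster 0). Emc9, Anxa8 and Edn1, which encodes endothelin, followed. Sub-cluster 1 was led by Flt1, a vascular growth factor receptor, with 69.8 and 67.5 CPM and no UMI in sub-cluster 0, which is at least 3.91-fold and 11.7-fold higher at a floor of 3 counts per library. Next came Cd36, the endothelial claudin Cldn5, the water channel Aqp1 and Fxyd3.

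More genes were lower than higher in sub-cluster 2 (255 against 178), and the lower genes below were named after their values were seen. Those with the largest fitted change, Stk40, Tfe3, Birc3, Rnf19b and Dcun1d3, had no UMI in sub-cluster 2. Stk40 had 113 and 86.7 CPM in sub-cluster 0, so it was at least 3.48-fold and 3.02-fold lower in sub-cluster 2. In sub-cluster 1 the lower genes were led by the transcription factor gene Etv1 (26.9 and 15.6 CPM against 77.3 and 154 CPM in sub-cluster 0). Igfbp2, which is among the 9 mesothelial markers, came next, with 96.7 and 62.3 CPM in sub-cluster 1 against 601 and 343 CPM in sub-cluster 0. Mustn1, Vat1l and the signalling ligand gene Wnt4 followed.

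Sums of class markers differed between the sub-clusters as well. The 11 endothelial markers summed to 86.5 and 239 CPM in sub-cluster 2 (6 of them at 0), 435 and 553 CPM in sub-cluster 1 (none at 0) and 208 and 150 CPM in sub-cluster 0 (Cdh5, Flt1 and Vwf at 0), beside 11889 and 9543 CPM in endothelial-like cells. The 9 fibroblast markers summed to 20121 and 17288 CPM in sub-cluster 2 (Dpt at 0), 11205 and 11263 CPM in sub-cluster 1 and 12273 and 12528 CPM in sub-cluster 0. The 9 mesothelial markers summed to 6865 and 11895 CPM in sub-cluster 2, 7316 and 6368 CPM in sub-cluster 1 and 3974 and 3482 CPM in sub-cluster 0 (Calb2 at 0 in each). Slpi is among these 9, with 3027 and 9189 CPM in sub-cluster 2 against 702 and 509 CPM in sub-cluster 0. Most of the difference between the sums of sub-clusters 2 and 0 is therefore Slpi alone. The sum does not show whether the other markers were higher. The 5 smooth muscle markers summed to 205 and 153 CPM in sub-cluster 2, 113 and 96.0 CPM in sub-cluster 1 (Myh11, Cnn1 and Actg2 at 0 in both) and 286 and 243 CPM in sub-cluster 0 (Actg2 at 0). The 7 adipocyte markers summed to 32.4 and 105 CPM in sub-cluster 2 (4 of them at 0), 80.6 and 205 CPM in sub-cluster 1 (Lep at 0) and 41.6 and 42.4 CPM in sub-cluster 0 (Adipoq and Plin1 at 0). A list of 20 immediate early and stress genes, chosen after the data were seen, summed to 10217 and 5221 CPM in sub-cluster 2, 17914 and 19801 CPM in sub-cluster 1 and 22083 and 22284 CPM in sub-cluster 0. The part of these markers in the results for the 10 genes was not tested, beyond the check without endothelial markers above.

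Mesothelial-like cells were next compared with fibroblast-like cells for genes that work with the 10: other keratins and filaments, the desmosomes and junctions that hold epithelia together, microvilli, relatives of the surface genes and regulators of epithelial state. The 8 lists hold 98 genes, of which 41 passed the filter on low counts. Of these, 20 were higher and 7 lower in mesothelial-like cells by edgeR, against a background of 18.2% of 7675 genes called higher and 15.8% called lower. Some list genes passed the filter only through mesothelial-like cells, where they were high, so the count of higher genes is partly set by the filter. Fibroblast markers are part of the contrast: they summed to 13452 and 12539 CPM in mesothelial-like cells and 20388 and 18887 CPM in fibroblast-like cells.

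Of the other keratins, none of 14 had enough UMIs to be tested. Krt10, a keratin of the upper epidermis, was the most abundant of them, with 195 UMIs in all cells. It had 13.4 and 11.9 CPM in mesothelial-like cells, versus 49.8 and 28.0 CPM in fibroblast-like cells. Krt14, a keratin of stratified epithelium, had 33.6 and 27.8 CPM in mesothelial-like cells and no UMI in fibroblast-like cells, and 43 of its 44 UMIs were mesothelial-like. The few UMIs of Krt17 (8), Krt23 (4), Krt80 (3) and Krt15 (2) all lay in mesothelial-like cells, whereas Krt79 had none there and 19 elsewhere. The other uroplakins and mucins were also too low to test. Their 9 genes had 7 UMIs in mesothelial-like cells, and the urothelial plaque gene Upk2 had none in any cell.

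Most of the desmosome and linker genes that could be tested were higher. Of 13, 7 were tested and 6 rose, with a median log2 fold change of 1.51 beside 0.05 over all genes. Perp, a desmosome-associated membrane protein, had 76.1 and 77.3 CPM in mesothelial-like cells and 0.572 and 1.83 CPM in fibroblast-like cells (adjusted p 3.63e-11). It had 112 of its 119 UMIs in mesothelial-like cells and passed the filter through them. Ppl, encoding periplakin, had 116 and 141 CPM in mesothelial-like cells, versus 13.2 and 26.2 CPM in fibroblast-like cells (adjusted p 3.87e-10). The plakophilins Pkp3 (2.24 and 7.93 CPM against 0 and 1.22 CPM in fibroblast-like cells) and Pkp4 (13.4 and 16.9 CPM against 1.72 and 7.92 CPM in fibroblast-like cells) rose at low levels, with adjusted p of 0.016 and 0.018. Jup and Plec completed the count and Dst did not pass. Jup, encoding plakoglobin, had 119 and 102 CPM against 55.5 and 56.1 CPM in fibroblast-like cells. Most UMIs of some of these genes lay in classes outside this comparison. Mesothelial-like cells held 9 of the 123 UMIs of Pkp3, 23 of 532 of Pkp4, 156 of 954 of Jup and 246 of 947 of Plec. For Ppl they held 194 of 274. Of the desmosomal genes too low to be tested, the plakophilin Pkp2 had 38.1 and 30.7 CPM in mesothelial-like cells and 6.87 and 6.09 CPM in fibroblast-like cells. Dsp had 8 UMIs, Dsg2 had 4 and Dsc2 had 13 in mesothelial-like cells. Dsp was not higher there, with 2.24 and 6.94 CPM against 7.44 and 2.44 CPM in fibroblast-like cells. Dsg2 and Dsc2 had no UMI in fibroblast-like cells. Without the low-count filter Pkp2, Dsc2 and Evpl were called higher as well.

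Junction and polarity genes had the largest median change of the lists. Of 18, 9 were tested and 8 rose, with a median log2 fold change of 5.84, or 4.70 with genes absent from fibroblast-like cells set at their lower bound. Cdh3 (69 of 70 UMIs in mesothelial-like cells), Cldn1 (74 of 76), Cgn (94 of 96) and Pard6b (115 of 121) passed the filter through mesothelial-like cells. The count of genes that rose and the median are therefore partly set by the filter. F11r, encoding a junctional adhesion molecule, had 242 and 280 CPM in mesothelial-like cells and 1.14 and 4.26 CPM in fibroblast-like cells (adjusted p 6.66e-20). Cldn1, a tight-junction claudin, had 58.2 and 47.6 CPM and Cdh3, encoding P-cadherin, 56.0 and 43.6 CPM, and neither had a UMI in fibroblast-like cells. They were at least 33.9-fold and 26.0-fold (Cldn1) and 32.6-fold and 23.9-fold (Cdh3) higher, at a floor of 3 counts per library. Cgn, encoding cingulin, had 60.4 and 66.4 CPM in mesothelial-like cells and 0.572 and 0.609 CPM in fibroblast-like cells. Cldn15, Pard6b and Tjp1 were also among those that rose. Mesothelial-like cells held 325 of the 454 UMIs of Cldn15, 390 of 841 of F11r and 110 of 558 of Tjp1, so other classes carried these genes too. The usual epithelial adhesion genes were nearly absent, with 1 UMI of Cdh1 and 5 of Epcam in mesothelial-like cells. DESeq2 called 4 of the 8, leaving out Cldn1, Cdh3, Cgn and Pard6b, and it did not call Perp.

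Microvillus and apical genes split by family member. Of 12, 9 were tested, 4 rose and 2 fell, with a median log2 fold change of 0.12. Podxl, an anti-adhesive sialomucin, had 231 and 278 CPM in mesothelial-like cells and 0.572 and 2.44 CPM in fibroblast-like cells (adjusted p 4.00e-21). Slc9a3r1, the scaffold that binds ezrin, had 360.4 and 359.8 CPM in mesothelial-like cells, versus 16.0 and 15.2 CPM in fibroblast-like cells (adjusted p 1.12e-22). Ezr itself had 284 and 275 CPM against 36.6 and 27.4 CPM in fibroblast-like cells, and Espn, an actin bundler of microvilli, rose too (53.7 and 42.6 CPM against 0 and 1.22 CPM in fibroblast-like cells). Other classes also carried these genes. Mesothelial-like cells held 383 of the 632 UMIs of Podxl, 524 of 910 of Slc9a3r1, 404 of 987 of Ezr and 67 of 123 of Espn. The ezrin relative Msn fell to 168 and 147 CPM in mesothelial-like cells, versus 250 and 226 CPM in fibroblast-like cells (adjusted p 0.0047). Rdx, the third member of that family, did not pass (175 and 187 CPM against 184 and 166 CPM in fibroblast-like cells). Cd9 fell as well, an adjusted p of 0.012 that was lost without the library block, with DESeq2 and with the stricter cell filter.

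Relatives of the surface genes were higher or lower by gene. Of 10, 4 were tested, 1 rose and 2 fell, with a median log2 fold change of -1.58. Gpm6b, the closest relative of Gpm6a, fell to 4.48 and 3.97 CPM in mesothelial-like cells, versus 59.5 and 52.4 CPM in fibroblast-like cells (adjusted p 1.29e-08). Lrrn4cl fell to 53.7 and 41.6 CPM, against 241 and 261 CPM in fibroblast-like cells (adjusted p 1.38e-13). The tetraspanin Cd81 rose, with 1005 and 817 CPM in mesothelial-like cells, versus 569 and 494 CPM in fibroblast-like cells. Its log2 fold change was 0.65 (adjusted p 0.0043), and this call was lost without the library block (adjusted p 0.052). Among those too low to be tested, the tetraspanin Tspan8 had 20.1 and 9.91 CPM in mesothelial-like cells and no UMI in fibroblast-like cells, and it was called higher without the low-count filter. All 4 UMIs of Mslnl, the mesothelin-like gene, lay in mesothelial-like cells.

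Other intermediate filaments gave no call. All 6 were tested, 0 were called by edgeR, 0 had an unadjusted p under 0.05 and 0 were called by DESeq2. Vim, encoding vimentin, had 1274 and 1574 CPM in mesothelial-like cells and 1496 and 1455 CPM in fibroblast-like cells, so the values overlapped, and its log2 fold change was -0.18 (SE 0.19). The vimentin level was above that of each keratin in both libraries.

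Of the 16 epithelial regulators, 6 were tested, 1 rose and 3 fell, with a median log2 fold change of -1.23. Klf5, a factor of epithelial progenitors, had 53.7 and 75.3 CPM in mesothelial-like cells, versus 5.72 and 4.87 CPM in fibroblast-like cells (adjusted p 1.64e-08). The mesenchymal factors Twist2 (2.24 and 2.97 CPM against 45.8 and 37.2 CPM in fibroblast-like cells), Zeb2 (51.5 and 60.5 CPM against 152 and 184 CPM in fibroblast-like cells) and Zeb1 (42.5 and 44.6 CPM against 108 and 108 CPM in fibroblast-like cells) fell. The adjusted p was 1.68e-06 for Twist2, 1.98e-07 for Zeb2 and 3.44e-07 for Zeb1. DESeq2 did not call Twist2.

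**Figure D4:**
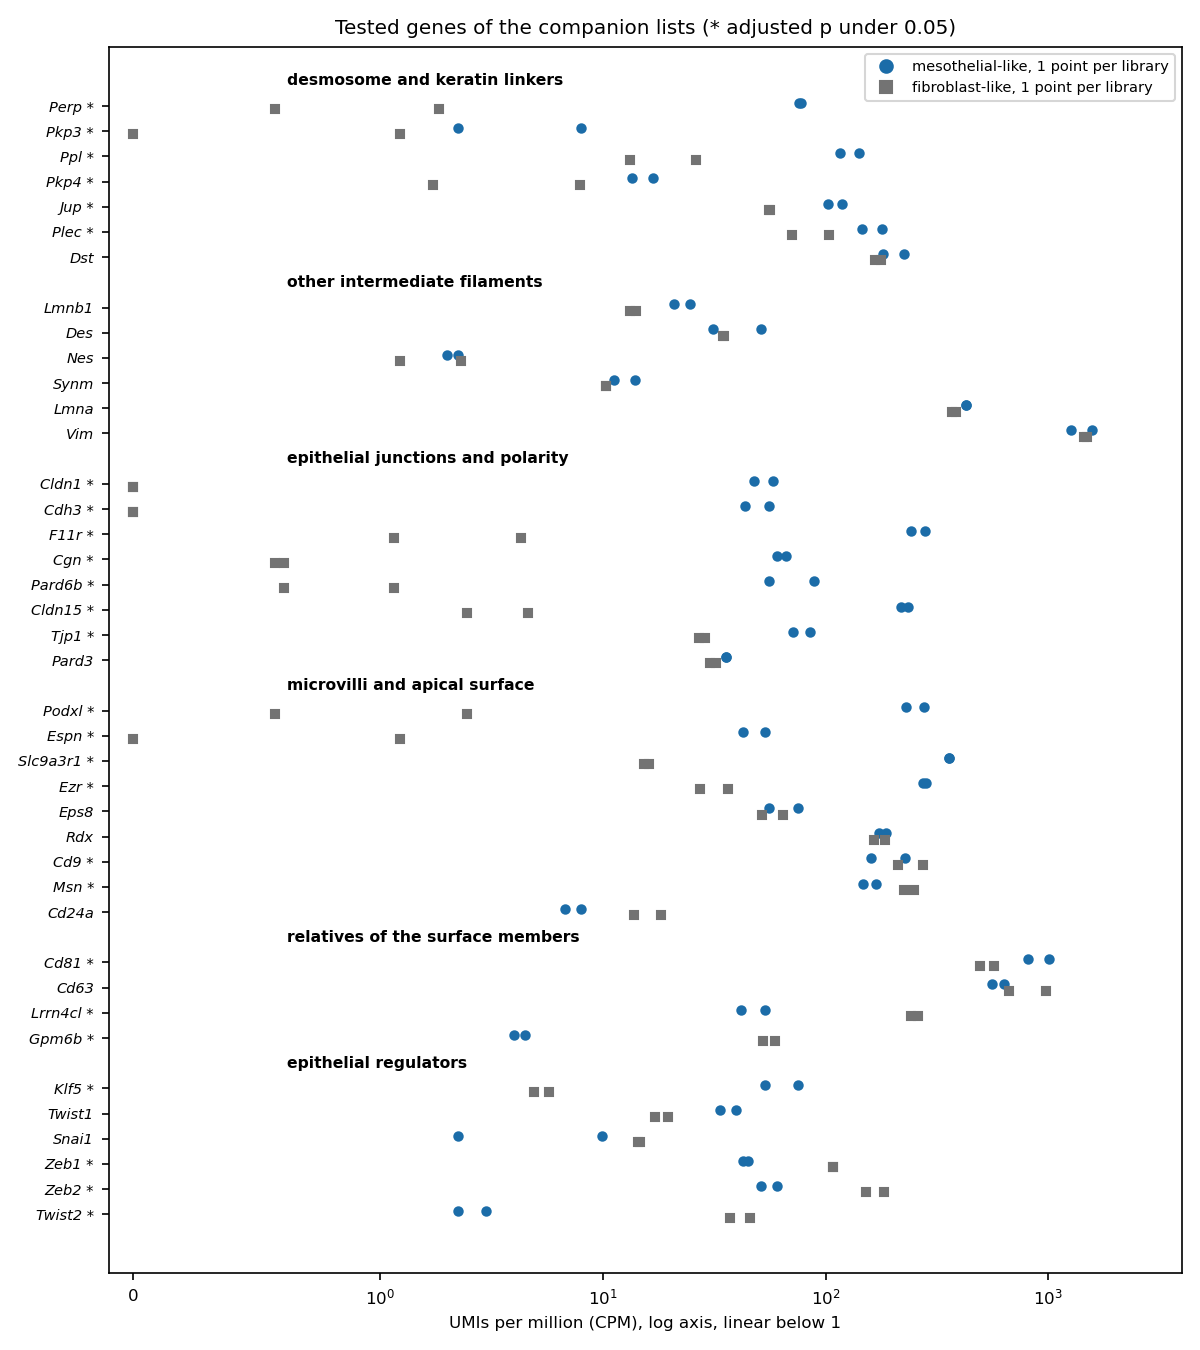
Level (CPM, log axis that is linear below 1) of tested genes of the companion lists in mesothelial-like cells (blue circles) and fibroblast-like cells (grey squares), with 1 point per library and an asterisk at an adjusted p under 0.05. Podxl, Slc9a3r1 and F11r lie far to the right in mesothelial-like cells, the 6 other filament genes overlap or lie close, and Gpm6b, Lrrn4cl and Twist2 lie to the left.

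Some of these genes also differed between the sub-clusters. In sub-cluster 2, Cldn15 (log2 fold change 1.58), Cd9 (1.30), Cd81 (1.17) and Ezr (0.82) were higher than in sub-cluster 0, and Zeb2, Klf5, Lmna and Cd63 were lower. In sub-cluster 1, Ezr was the only list gene called (0.76, edgeR adjusted p 0.043). Over all genes, 5.46% were called higher and 7.83% lower in sub-cluster 2, and 1.35% and 0.798% in sub-cluster 1. The single call in sub-cluster 1 is therefore not read as a result about the lists.

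The genes whose class pattern was most like that of the 10 were found by Pearson correlation of log2(CPM + 10) with their summed level over 22 class-by-library sums, among 10184 genes with at least 50 UMIs. Libraries and cells are shared between the genes, and the mesothelial-like sums dominate each correlation, so no p is given. The closest were Myo5b, a vesicle motor (r 0.976), Ngb, encoding neuroglobin (0.973), Gm26873 (0.972), the class markers Bnc1 and Pkhd1l1, Spock3, 1500015O10Rik, Fxyd3, Nfe2l3 and the junction gene Cgn (0.970). Taken gene by gene, 1500015O10Rik was closest to Msln, Krt7 and Krt19, Ngb to Upk1b and Gpm6a, and Gm26873 to Upk3b. Lrrn4 was closest to Cxadr, a junction receptor, Muc16 to Vat1l, Krt8 to Myo5b and Krt18 to Pard6b. Outside mesothelial-like cells Cxadr and Pard6b were each highest in NK or ILC1-like cells, at 15.4 CPM, the level of 1 UMI in library 2. Lrrn4 and Krt18 also had 1 UMI each there, so single UMIs enter both pairings. Their levels were modest: Myo5b had 40.3 and 47.6 CPM, and Ngb 42.5 and 41.6 CPM, in mesothelial-like cells.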

How the data were processed

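The deposited values are UMI counts for each gene in each barcode, whole numbers that were not normalized. Per the submitters' processing notes, Cell Ranger was used with mm10; its version and its barcode threshold are not given in the sources used. A suffix of 1 or 2 on each barcode was matched by number to the mouse, which affects only the naming of the libraries. The 10 genes and the companion lists were chosen with earlier results of these data known.

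A filter of 200 genes or more and no more than 10% mitochondrial UMIs removed 61 barcodes. Scrublet (scanpy 1.11.5, Python 3.11.15) was run per library and took out 39 and 4 doublets (automatic thresholds 0.163 and 0.313), an unequal share. After log-transformation of counts scaled to 10000, Leiden clustering (resolution 1.0) on 2000 variable genes, 30 principal components and 15 neighbours gave 18 clusters. The 10 genes and the 98 list genes were kept out of the variable genes, and the 10 were not among the markers that named classes. A cluster was named for the class whose markers were highest, with at least 3 markers above 2-fold, and a cluster with no such markers stayed unnamed. So did a cluster of 23 cells with 5 ILC2 markers above 2-fold, whose leading genes (Tnfrsf4, Ikzf2, Il10, Ctla4 and Foxp3) are those of regulatory T cells. Sub-clusters of mesothelial-like cells used 1000 variable genes, 15 components and resolution 0.5.

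UMIs were summed per library and class (22 sums, 11 classes) or sub-cluster, and tested by edgeR 4.0.16 in R 4.3.3 (quasi-likelihood F-test) with TMM factors, filterByExpr, library as a block because each mouse gave every class, Benjamini-Hochberg adjustment over all genes tested and calls at an adjusted p of 0.05. DESeq2 1.42.0 was an alternative. The fit was also run on simulated counts, for endothelial-like minus fibroblast-like cells and for sub-clusters 2 and 0. Only genes with many UMIs were changed there. That run therefore does not bear on genes near the limit of detection or on the mesothelial-like against fibroblast-like comparison. With 2 animals, p-values rest on the spread between libraries across classes, and nothing beyond the mouse numbers says how the samples were kept apart.

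All 10 genes are named, with up to 4 called genes of the largest fold per list (average log2 CPM of at least 3), the genes of most like pattern and the 5 leading genes per sub-cluster. Other list genes were named after their values were seen, and 1 list gene is not reported here. Coordinates are of GRCm38, and promoters are from RefSeq.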

Additional observations from a re-analysis of the deposited data

Results flagged for a closer look

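The cells analysed leave out 104 barcodes, and 20 of these held a UMI of the 10 genes, 256 in all. In 10 of them the count was above the 3 UMIs that a count of 0 allows, so there was signal in barcodes outside the main measurement.

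Of the barcodes removed as doublets, 5 held 42, 25, 23, 22 and 5 UMIs of the 10 genes. The barcode with 42 UMIs, in library 2, carried all 10 genes, beside 22 UMIs of mesothelial markers and 63 of fibroblast markers. The barcode with 23 UMIs, in library 2, carried 30 UMIs of endothelial markers beside 11 of mesothelial markers.

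Of the barcodes removed for their share of mitochondrial UMIs, 5 held 83, 14, 10, 9 and 8 UMIs of the 10 genes. The barcode with 83 UMIs, in library 1, held 28 of Krt8 and 55 of Krt18 and none of the other 8 genes, out of 2146 UMIs in all. It had no UMI of a mesothelial marker and 23 UMIs of gut epithelial markers, and 13.0% of its UMIs were mitochondrial. The barcode with 10 UMIs held 3 of Krt8, 1 of Krt18 and 6 of Krt19, beside 8 UMIs of gut epithelial markers. The barcode with 8 UMIs held 6 of Krt8, 1 of Krt18 and 1 of Krt19, beside 18 UMIs of gut epithelial markers. Neither held a UMI of a surface gene or of a mesothelial marker. The barcodes with 14 and 9 UMIs, both in library 2, carried surface genes and 16 and 3 UMIs of mesothelial markers.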

How the results depend on the processing

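No called result changed direction under any alternative run. Over the 10 genes between sub-clusters and the list genes that the naming rule picks, 12 calls were lost and 3 gained in all. Of the 27 list genes called, DESeq2 called 20, and 38 list genes were called without the low-count filter. Leaving out either library kept the direction of all 27 called list genes and of the 3 and 7 genes called between sub-clusters, and gave 98.5 to 98.9% of the UMIs from mesothelial-like cells. With single libraries there are no residual degrees of freedom, so these are values with no test, and the class pairs gave none.

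DESeq2 called fewer genes. It called 4 junction genes higher (8 in edgeR), 1 microvillus gene lower, 1 of the 10 genes higher in sub-cluster 1, 4 in sub-cluster 2 and 4 in at least 1 sub-cluster. Over all genes it called 11 higher and 2 lower in sub-cluster 1 (edgeR 44 and 26), so 84.6% of the calls were higher with DESeq2 and 62.9% with edgeR, and 48 higher and 81 lower in sub-cluster 2 (edgeR 178 and 255). The cause was not tested. DESeq2 size factors moved the median of all genes between macrophage-like and fibroblast-like cells to -0.15, from -0.05.

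Without the filter on low counts more genes could be tested: desmosome genes gave 9 higher (adding Pkp2, Dsc2 and Evpl), other keratins 1 higher (Krt14) and 1 lower (Krt10), relatives of the surface genes 2 higher and 4 lower, and regulators 3 higher. Each mouse gave every class, so library was the replicate block of the main fit. With no replicate block, 25 of the 27 list genes stayed called, microvillus genes gave 1 lower and relatives 0 higher, through Cd9 and Cd81, and the calls for the 10 genes were the same. The stricter cell filter gave 1 microvillus gene lower. Resolution 2.0 and leaving doublets in each gave 2 regulators higher, adding Twist1. Leaving doublets in also called 1 of the 10 genes (Gpm6a) between endothelial-like and fibroblast-like cells. That call rests on a few UMIs and, like the other calls between these classes, is not read.

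Thinning set the shares of cells with a UMI, whose median over the 10 genes was 27.5% at 1000 UMIs, 17.0% at 500, 52.0% at 2000 and 73.4% unthinned. The median variance-to-mean ratio was 1.11 thinned and 3.34 unthinned. Outside mesothelial-like cells all 10 genes rest on 100 UMIs, so the intervals there are wide.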
